A study of Mus musculus with 8 samples.

Results

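CD8 T cells labelled Nr4a dKO were recovered from B16-OVA melanomas and sorted by the inhibitory receptor Tim3, and the RNA of PD1+Tim3+ cells was compared with that of PD1+Tim3- cells. The 4 libraries, 2 per population, were chosen from the 8 of the series by their labels, and all 24976 named genes of the count table were read in them. Every mouse that received cells was Rag2-/-, a genotype without T or B cells of its own, and carried B16-OVA, a mouse melanoma line that makes ovalbumin, placed under the skin 10 days before transfer. Donor CD8 T cells were WT or Cd8Cre NR4a1flox/flox NR4a2flox/flox OT-I Tg/+, that is, with a Cre recombinase driven by Cd8, floxed alleles of Nr4a1 and Nr4a2 and a transgenic T cell receptor for ovalbumin. Whether the WT donors carried OT-I too is not stated in the labels. Cells positive for CD3e and CD8 were sorted from the tumours on day 10 after transfer, the cells of each implanted mouse forming a sample, and WT libraries of the same populations, also 2 each, served for comparison. In bulk RNA, a gene made by fewer cells and a gene made at a lower level per cell cannot be told apart.

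PD1, encoded by Pdcd1, and Tim3, encoded by Havcr2, are inhibitory receptors that T cells display when antigen persists. In tumours, PD1+Tim3- cells include progenitors that keep the transcription factor TCF1, encoded by Tcf7, and renew the response, while PD1+Tim3+ cells are further differentiated, kill better and divide for a shorter time. NR4A proteins are nuclear receptors that antigen signals induce and that restrain T cells in tumours.

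The sort was visible in its own gene. Havcr2 stood at 3.62 and 3.15 CPM (TMM-scaled counts relative to library size, abbreviated CPM) in replicates 1 and 2 of PD1+Tim3- and at 56.6 and 58.2 in PD1+Tim3+. This gene chose the populations, so its difference is a description. Pdcd1, used in both gates, stood at 50.1 and 63.0 against 47.1 and 49.9 CPM. The T cell genes Cd3e, Cd8a and Cd8b1 were counted at 284 to 334, 1001 to 1206 and 677 to 780 CPM over the 4 libraries, and none was called. Cd4 had no count in 3 of the libraries and 0.525 CPM in the other.

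The targeted genes were not low in the libraries labelled dKO. Nr4a1 stood at 1331 and 1489 CPM in PD1+Tim3- and 1194 and 1175 in PD1+Tim3+, above the 789 to 979 CPM of the 4 WT libraries. Nr4a2 stood at 937 and 929 against 954 and 984 CPM, beside 958 to 1034 in WT. The floxed exons are not named in the labels, and a count over the whole gene may include exons that remain. Since these levels go against the label, "labelled dKO" is kept throughout. Neither gene was called between the populations, with log2 fold changes (PD1+Tim3+ over PD1+Tim3-) of -0.25 ± 0.13 (SE) for Nr4a1 and 0.05 ± 0.11 for Nr4a2. Total counts were 5519221 and 1944999 in PD1+Tim3- and 5256474 and 5609692 in PD1+Tim3+, so 3 counts correspond to at most 1.54 CPM. Ribosomal RNA genes took 1.86% ± 0.286 of counts in PD1+Tim3- and 8.17% ± 0.336 in PD1+Tim3+ (SD, n = 2), and the part of this difference in the results was not tested, except that the count of called genes was 1289 without those genes.

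Of 13073 genes tested by the quasi-likelihood F test of edgeR, 1298 were called at a Benjamini-Hochberg adjusted p under 0.05, which is 9.93% of those tested. PD1+Tim3+ cells had higher levels of 681 of them, or 5.21%, and lower levels of 617, or 4.72%. Changes above 2-fold numbered 293 upward and 346 downward, and the median log2 fold change of all tested genes was 0.01. The 2 libraries of 1 population lay wholly above the 2 of the other in 6650 genes, 50.9% of those tested. The count moved with the libraries used. It was 132 without replicate 1 of PD1+Tim3-, with 103 higher and 29 lower, 290 without replicate 2 of PD1+Tim3-, and 772 without replicate 1 of PD1+Tim3+, with 583 higher and 189 lower. Without either WT PD1+Tim3+ library, which enters the shared estimate of spread, it was 796. Robust empirical Bayes gave 726 higher and 350 lower, and a test against 1.5-fold 122 higher and 18 lower.

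**Figure D1:**
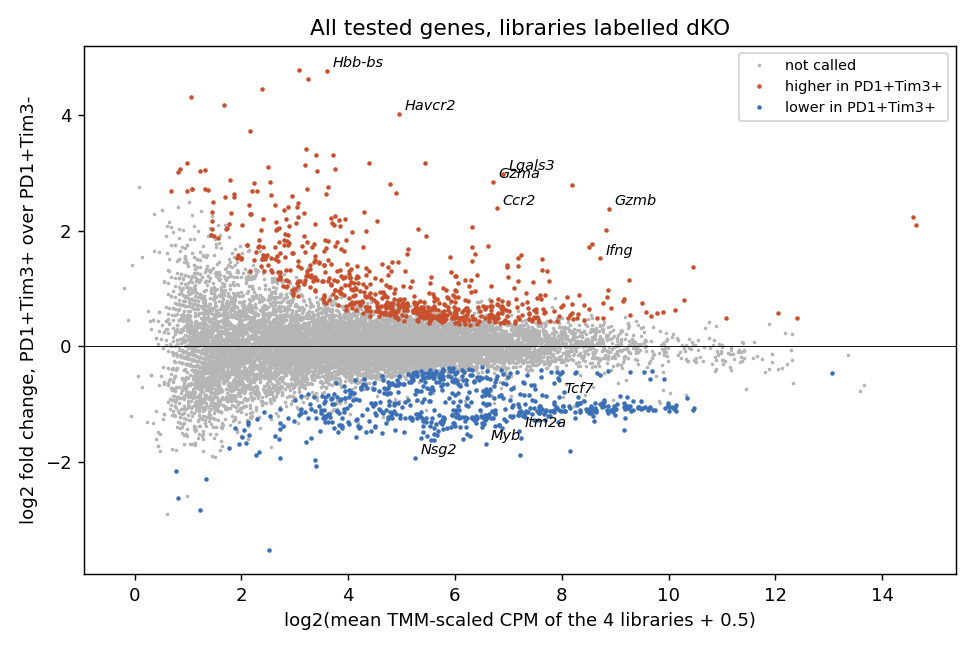
Log2 fold change of each tested gene (vertical axis) against the log2 of its mean level over the 4 libraries labelled dKO (horizontal axis, TMM-scaled CPM plus 0.5). Red points are the 681 genes called higher in PD1+Tim3+, blue points the 617 called lower and grey points those not called. Changes above 2-fold number 293 upward and 346 downward, and Havcr2 stands at 4.03.

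Genes of cytotoxic granules, cytokines and surface receptors were among those with the lowest p upward. Gzma, which encodes the granule protease granzyme A, stood at 24.6 and 26.8 CPM in PD1+Tim3- and 196 and 170 in PD1+Tim3+. The log2 fold change was 2.85 ± 0.14, with an adjusted p of 2.16e-06. Gzmb, encoding granzyme B, stood at 151 and 150 against 853 and 726 CPM, 2.39 ± 0.14. Fasl, whose product triggers death through Fas, rose from 18.1 and 18.4 to 68.5 and 68.7 CPM, 1.91 ± 0.13. These 3 genes gave nearly equal values within a population and several-fold higher values in PD1+Tim3+ cells. Ifng, the gene of interferon gamma, stood at 212 and 220 against 626 and 616 CPM, 1.52 ± 0.11. Ccr2, a chemokine receptor gene that guides cells into inflamed tissue, stood at 36.4 and 33.1 against 182 and 187 CPM, 2.39 ± 0.13. The membrane protease gene Adam8 rose by 2.81 ± 0.20 on the log2 scale, and Fgl2, encoding a secreted fibrinogen-like protein, by 2.08 ± 0.16. Rora, encoding a nuclear receptor, stood at 39.6 and 42.5 against 124 and 122 CPM, 1.59 ± 0.12, and Cdkn1a, encoding the cell cycle inhibitor p21, at 82.0 and 67.2 against 218 and 234 CPM, 1.58 ± 0.13.

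Downward, the leading genes included regulators of progenitor cells. Myb, encoding a transcription factor of stem-like CD8 T cells, stood at 146 and 143 CPM in PD1+Tim3- and 43.2 and 46.6 in PD1+Tim3+, a log2 fold change of -1.69 ± 0.11. Lack of overlap between the libraries of the populations was a condition for choosing the leading genes in both directions. Nsg2, which encodes a vesicle protein first known from neurons, stood at 54.3 and 65.1 against 14.3 and 16.4 CPM, -1.93 ± 0.14. Il6st, encoding the shared receptor chain gp130, stood at 68.4 and 77.2 against 24.6 and 22.2 CPM, -1.62 ± 0.12. Itm2a, which encodes a membrane protein of activated T cells, stood at 200 and 231 against 76.1 and 80.2 CPM, -1.46 ± 0.12. Among the others were Id3, encoding a regulator of memory cells, at -1.48 ± 0.14, Actn1, encoding the actin crosslinker alpha-actinin, at -1.59 ± 0.18, Btla, encoding an inhibitory receptor, at -1.10 ± 0.15, and Art2b, encoding a surface ADP-ribosyltransferase, at -2.07 ± 0.23.

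Of the 30 genes picked for lowest p above 2-fold, 15 in each direction, 29 kept their call whichever of the 8 libraries was left out. St6gal1, encoding a sialyltransferase, was the exception, with an adjusted p of 0.0865 without replicate 1 of PD1+Tim3-. These genes were chosen on this contrast, so their agreement is a description.

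**Figure D2:**
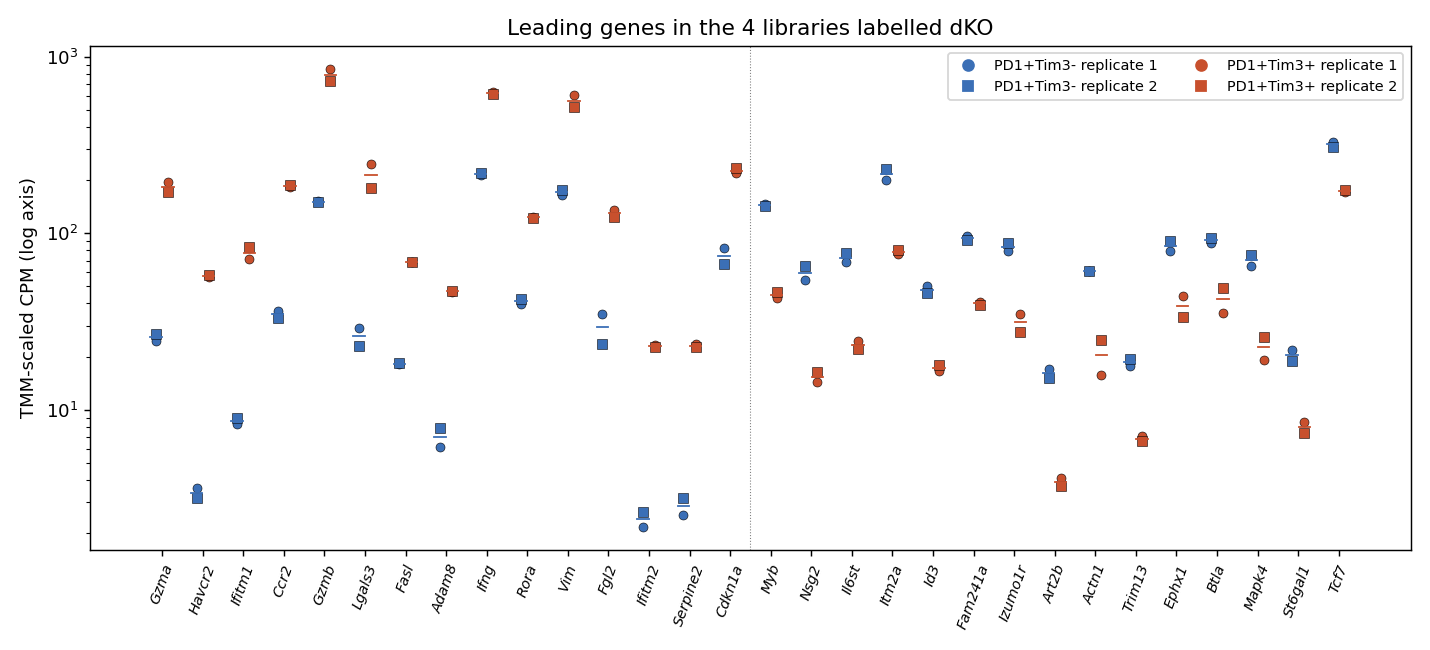
Level in each library labelled dKO (vertical axis, TMM-scaled CPM, log axis) of 15 higher and 14 lower genes of lowest p, left and right of the dotted line, and of Tcf7. Circles are replicate 1, squares replicate 2, short lines the means, blue PD1+Tim3- and red PD1+Tim3+. Lack of overlap between blue and red was a condition for choosing the 15 and 14 genes, and it held in 50.9% of all tested genes. Gzma stands at 24.6 and 26.8 against 196 and 170, and Tcf7, not chosen by that condition, at 329 and 308 against 171 and 176.

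The promoters of 2 genes that rose (Gzma and Havcr2, the sort gene) and 3 that fell (Myb, Nsg2 and Tcf7) are shown because factors of the NR4A, TCF, AP-1 and RUNX families act in these cells. Each is the 250 bases before and 50 after the start of the gene in RefSeq, build GRCm38.p6, printed 5′ to 3′ on the strand of the gene. Capitals mark matches on either strand to AAAGGTCA (bound by NR4A), CTTTGA (TCF), TGANTCA (AP-1) or TGTGGT (RUNX). Tcf7 had more than 1 entry, of which the first is printed. That window holds protein-coding sequence of Tcf7, so it is not the promoter of the gene as read from a start further upstream.
Gzma, chr13:113100932-113101231, reverse strand: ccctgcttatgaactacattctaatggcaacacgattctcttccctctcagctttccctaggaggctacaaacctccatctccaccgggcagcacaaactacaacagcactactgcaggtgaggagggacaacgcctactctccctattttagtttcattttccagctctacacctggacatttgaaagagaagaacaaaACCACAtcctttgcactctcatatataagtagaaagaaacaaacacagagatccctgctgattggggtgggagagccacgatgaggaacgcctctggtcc
Havcr2, chr11:46454681-46454980, forward strand: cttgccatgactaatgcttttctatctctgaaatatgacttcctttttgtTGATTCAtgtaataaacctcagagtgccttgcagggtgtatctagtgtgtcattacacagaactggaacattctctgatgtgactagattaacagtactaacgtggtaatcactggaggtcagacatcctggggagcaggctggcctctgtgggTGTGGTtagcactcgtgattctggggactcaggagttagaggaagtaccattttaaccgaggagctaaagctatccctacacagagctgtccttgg
Myb, chr10:21160935-21161234, reverse strand: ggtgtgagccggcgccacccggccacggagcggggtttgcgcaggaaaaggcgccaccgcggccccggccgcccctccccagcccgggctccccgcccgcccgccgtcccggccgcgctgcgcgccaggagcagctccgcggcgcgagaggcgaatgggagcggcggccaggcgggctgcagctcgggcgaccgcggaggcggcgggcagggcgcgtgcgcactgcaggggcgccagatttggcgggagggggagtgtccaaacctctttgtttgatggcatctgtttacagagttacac
Nsg2, chr11:32000169-32000468, forward strand: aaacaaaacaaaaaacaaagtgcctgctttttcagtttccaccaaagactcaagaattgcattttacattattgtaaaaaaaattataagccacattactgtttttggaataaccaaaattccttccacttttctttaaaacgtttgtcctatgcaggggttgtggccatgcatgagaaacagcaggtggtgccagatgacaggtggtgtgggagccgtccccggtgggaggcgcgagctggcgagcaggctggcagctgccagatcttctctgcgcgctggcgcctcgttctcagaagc
Tcf7, chr11:52282965-52283264, reverse strand: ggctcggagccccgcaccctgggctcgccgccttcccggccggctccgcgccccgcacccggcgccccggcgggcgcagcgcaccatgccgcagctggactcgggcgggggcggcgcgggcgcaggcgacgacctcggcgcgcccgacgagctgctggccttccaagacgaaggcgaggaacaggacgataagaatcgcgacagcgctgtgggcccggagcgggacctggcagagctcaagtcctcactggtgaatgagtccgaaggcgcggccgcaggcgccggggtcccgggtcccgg

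Gzma held 1 RUNX match, starting 50 bases before the start, and Havcr2 held 1 RUNX match 46 bases before it and 1 AP-1 match 200 bases before it. The windows of Myb, Nsg2 and Tcf7 held none of the 4 motifs. For Tcf7 this covers only the first of its entries, whose window lies in protein-coding sequence of the gene as read from another start. Windows of its other entries were not searched. RUNX letters were in 16.8% of the 531 promoters of genes called higher, 14.4% of the 478 of genes called lower and 16.9% of all 27025. AP-1 letters were in 7.34%, 3.97% and 7.93%, TCF letters in 12.2%, 11.9% and 16.2%, and NR4A letters in 0.565%, 0.837% and 1.46%. Among the 9723 promoters of tested genes these shares were 13.5%, 5.01%, 12.6% and 0.967% in the same order. The shares were not tested, and a match is not evidence of binding.

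Of 24 tested stem-like and memory genes, 12 fell in PD1+Tim3+ cells and none rose, where 4.72% of all tested genes fell and 5.21% rose. Their median log2 fold change was -0.36, beside 0.01 for all genes. Tcf7 itself stood at 329 and 308 against 171 and 176 CPM, -0.87 ± 0.11, adjusted p 0.00123. Its means were 318 ± 14.5 and 174 ± 3.39 CPM (SD, n = 2), so PD1+Tim3+ cells kept a clear level of this transcript. Slamf6, encoding a surface receptor of progenitor cells, stood at 188 and 241 against 123 and 114 CPM, -0.85 ± 0.13. Ccr7, whose product guides cells into lymph nodes, stood at 93.7 and 85.6 against 48.8 and 44.3 CPM, -0.95 ± 0.11. These genes, with Myb and Id3, kept their calls when any library was left out. Of the 12 calls 6 remained without replicate 1 of PD1+Tim3-. Lef1, encoding a partner of TCF1, fell by 0.65 on the log2 scale, and Cxcr5, encoding a receptor for follicle homing, by 1.89, with adjusted p of 0.0672 and 0.233 without that replicate, where Bach2, Satb1, Dapl1 and Ikzf1 had 0.208, 0.113, 0.589 and 0.196. Not every gene of quiescent cells moved: Il7r, encoding the interleukin 7 receptor, stood at 199 and 198 against 193 and 207 CPM, and S1pr1, whose product leads cells out of tissue, at 44.0 and 42.0 against 47.3 and 47.7 CPM. Foxo1 and Klf2, transcription factor genes of resting T cells, stood at log2 fold changes of 0.03 and -0.16 and were not called.

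Among 19 granule effector genes, which arm killer cells, 9 rose, 10 were not called and none fell, with a median of 0.64. Of all tested genes 5.21% rose and 4.72% fell. Gzmk, encoding granzyme K, stood at 3.98 and 4.20 against 43.9 and 29.7 CPM, 3.18 ± 0.26. Serpinb9 and Serpinb6b, which encode inhibitors of granule proteases, rose from 85.8 and 97.1 to 213 and 185 CPM and from 73.8 and 80.3 to 184 and 168 CPM. Gzmc, encoding granzyme C, stood at 1.27 and 0.525 against 9.49 and 9.24 CPM, and had an adjusted p of 0.0741 without replicate 1 of PD1+Tim3-. Prf1, the gene of the pore-former perforin, stood at 0.46 ± 0.15 and was not called. Without that replicate 6 of the 9 calls remained.

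Inhibitory receptors split. Of 24 genes of inhibitory receptors and exhaustion factors 8 rose and 3 fell, beside 5.21% and 4.72% of all tested genes. The median was 0.33, and Havcr2, which chose the cells, is 1 of the 8. Entpd1, encoding the ATP-cleaving enzyme CD39, stood at 2.17 and 2.62 against 14.7 and 15.9 CPM, 2.73 ± 0.27. Id2, encoding a regulator of effector cells, stood at 227 and 221 against 436 and 396 CPM, 0.89 ± 0.12. Tigit, encoding an inhibitory receptor, rose by 0.74 ± 0.14, with an adjusted p of 0.113 without replicate 1 of PD1+Tim3-. Tox, encoding a factor that installs exhaustion, fell from 30.8 and 36.7 to 19.7 and 17.7 CPM, -0.81 ± 0.16, with adjusted p of 0.0741 and 0.0794 without replicates 1 and 2 of PD1+Tim3-. Lag3 and Ctla4, genes of further inhibitory receptors, were not called, at 221 and 230 against 230 and 205 CPM and at 354 and 365 against 391 and 365 CPM. Havcr2, Entpd1, Id2 and Btla were the 4 of the 11 calls that held whichever library was left out.

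Receptors shared with natural killer cells were all at positive log2 fold changes, 17 of 17. Of these 8 rose, beside 5.21% of all tested genes, and the median was 0.76. Klre1, encoding a lectin-like receptor, stood at 10.7 and 5.25 against 29.6 and 30.3 CPM, 1.72 ± 0.25. Klrk1, the gene of the activating receptor NKG2D, rose from 209 and 231 to 387 and 344 CPM, 0.73 ± 0.13, and Klrc1, the gene of the inhibitory receptor NKG2A, from 304 and 347 to 598 and 501 CPM, 0.76 ± 0.13. Klrg1, a marker of terminal effector cells, stood at 1.45 and 1.57 against 11.9 and 6.47 CPM, 2.62 ± 0.46. With 8 and 3 counts in PD1+Tim3-, it passed the low-count filter through PD1+Tim3+ libraries, so only a rise could be called. Without replicate 1 of PD1+Tim3-, Klre1 alone kept its call, and Klrk1, Klrc1 and Klrg1 had adjusted p of 0.101, 0.104 and 0.127.

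Among 25 cytokine and chemokine genes that passed the low-count filter, of 30 listed, 14 rose and none fell. Of all tested genes 5.21% rose and 4.72% fell, and the median of the list was 0.96. Beside Ifng, Ccl3, encoding an inflammatory chemokine, stood at 72.8 and 65.6 against 175 and 189 CPM, 1.38 ± 0.12. Ccl5, encoding another such chemokine, stood at 897 and 671 against 1582 and 2473 CPM, 1.37 ± 0.20, and varied more between libraries than Ccl3. Csf1, encoding a growth factor of macrophages, stood at 2.90 and 0.525 against 18.4 and 18.8 CPM, 3.04 ± 0.34. Its replicate 2 of PD1+Tim3- held 1 count, and the log2 fold change was 5.10 without replicate 1 of PD1+Tim3-. Csf2, encoding the growth factor GM-CSF, rested on 3 and 1 counts in PD1+Tim3- and stood at 7.26 and 7.57 CPM in PD1+Tim3+. The called genes Areg and Spp1 had 3 and 2 and 2 and 3 counts in PD1+Tim3-. Csf2, Areg and Spp1 passed the filter through PD1+Tim3+ libraries, so only a rise could be called. Tnfsf10, encoding the death ligand TRAIL, rose from 41.8 and 45.7 to 83.2 and 85.2 CPM, 0.96 ± 0.11. Tnf stood at 44.3 and 44.1 against 64.0 and 61.3 CPM, 0.50 ± 0.12. Cd40lg, encoding the helper ligand CD154, rose by 1.42 ± 0.24. Of the 14 calls 5 remained without replicate 1 of PD1+Tim3-, and Csf2, Tnf and Cd40lg then had adjusted p of 0.104, 0.162 and 0.105. Tnf also stood at 0.119 without replicate 2 of PD1+Tim3-, 0.0729 without replicate 1 of PD1+Tim3+, and 0.0563 and 0.0558 without replicates 1 and 2 of WT PD1+Tim3+.

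Receptors for movement changed in both directions, where 5.21% of all tested genes rose and 4.72% fell. Of 24 chemokine and lipid receptor genes 6 rose and 3 fell, Ccr7 and Cxcr5 among them, with a median of 0.26, and 5 of the 9 calls remained without replicate 1 of PD1+Tim3-. Cxcr6, encoding a receptor that holds T cells in tissue, stood at 123 and 120 against 330 and 271 CPM, 1.30 ± 0.14. Cxcr3 stood at 102 and 96.0 against 122 and 111 CPM and was not called. Among 23 genes of integrins, adhesion and residency 10 rose and none fell, with a median of 0.47. Itga1, the chain of the collagen receptor VLA-1, stood at 7.42 and 4.20 against 36.5 and 28.8 CPM, 2.33 ± 0.23. Itga2, of the collagen receptor VLA-2, rose by 1.64 ± 0.26. Without replicate 1 of PD1+Tim3-, Itga1 alone of the 10 kept its call, and Itga2 had an adjusted p of 0.0666. Without replicate 2 of PD1+Tim3- 3 remained. Cd69, encoding a residency marker, stood at 461 and 481 against 500 and 440 CPM.

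Of 36 genes of costimulatory and cytokine receptors 8 rose and 2 fell (Slamf6 and Il6ra), beside 5.21% and 4.72% of all tested genes. The median was 0.16. Of the 10 calls 3 remained without replicate 1 of PD1+Tim3-. Il18r1 and Il18rap, both chains of the interleukin 18 receptor, stood at 120 and 105 against 288 and 280 CPM, 1.33 ± 0.11, and at 104 and 120 against 263 and 218 CPM, 1.11 ± 0.13. Il2ra, of the interleukin 2 receptor, rose by 0.79 ± 0.10, with an adjusted p of 0.0514 without replicate 1 of PD1+Tim3-. Il6ra, whose product pairs with the Il6st product named above, fell from 7.96 and 10.5 to 2.61 and 3.14 CPM, -1.60 ± 0.31, with adjusted p of 0.0862 and 0.0701 without replicates 1 and 2 of PD1+Tim3-. Slamf6, Il18r1 and Il18rap were the calls that held whichever library was left out.

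Transcription factors of effector cells rose in 14 of 31 cases and fell in 2 (Klf3 and Gata3), with a median of 0.22. The shares over all tested genes were 5.21% higher and 4.72% lower. Runx2 stood at 80.9 and 78.7 against 210 and 209 CPM, 1.39 ± 0.13. Bhlhe40, encoding a factor that sustains cytokine production, stood at 321 and 311 against 601 and 641 CPM, 0.97 ± 0.12, and Rbpj, the mediator of Notch signals, at 132 and 141 against 255 and 246 CPM, 0.88 ± 0.11. Zeb2, encoding a transcriptional repressor that acts in terminal effector cells, stood at 14.3 and 12.1 against 32.4 and 29.4 CPM. Its call was lost without replicate 1 of PD1+Tim3-, where the log2 fold change was 1.36. Of the 16 calls 7 remained without that replicate, 8 without replicate 2 of PD1+Tim3- and 9 without replicate 1 of PD1+Tim3+, and Klf3 and Gata3 were lost in each of the 3 fits. Tbx21 and Eomes, the T-box factor genes of CD8 cells, stood at 0.22 ± 0.10 and -0.11 ± 0.16 and were not called. Genes that antigen receptor signals induce split, with 7 higher and 4 lower of 34 and a median of 0.04. Higher were the phosphatase gene Dusp4, at 31.7 and 31.0 against 63.8 and 54.9 CPM, and Fosb, at 727 and 790 against 1189 and 1101 CPM. Lower were Myc, encoding a growth regulator, at 102 and 90.8 against 55.3 and 56.5 CPM, and Egr2, at 63.0 and 70.3 against 39.3 and 44.9 CPM. None of the 11 calls in this list was kept without replicate 1 of PD1+Tim3-, where Dusp4, Fosb, Myc and Egr2 had adjusted p of 0.0639, 0.112, 0.0812 and 0.0900. Without replicate 2 of PD1+Tim3- 2 were kept.

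Of 28 genes of G2 and mitosis 20 rose and none fell, beside 5.21% and 4.72% of all tested genes. All 28 had positive log2 fold changes, and the median was 1.42. Mki67, the proliferation marker, stood at 34.4 and 40.4 against 113 and 127 CPM, 1.71 ± 0.15, adjusted p 5.88e-05. Ccna2, encoding cyclin A, stood at 4.71 and 6.30 against 26.2 and 21.8 CPM, 2.21 ± 0.22, and Aurkb, encoding the mitotic kinase aurora B, at 4.34 and 2.62 against 13.2 and 12.7 CPM, 1.75 ± 0.27. Of 28 S phase genes 12 rose, 2 fell and 14 were not called, with a median of 0.55. Cdc45, of the replicative helicase, stood at 4.34 and 3.15 against 14.7 and 13.3 CPM, 1.80 ± 0.24, and Rrm2, of ribonucleotide reductase, rose by 1.46 ± 0.20. The S phase genes that fell were Ccne1, encoding cyclin E, and Cdt1, encoding a licensing factor, at -1.05 ± 0.27 and -0.80 ± 0.21. Of the 20 mitotic calls 3 (Mki67, Ccna2 and Aurkb) and of the 14 S phase calls 1 (Cdc45) remained without replicate 1 of PD1+Tim3-. There Rrm2, Ccne1 and Cdt1 had adjusted p of 0.0834, 0.123 and 0.104. Ccne1 and Cdt1 had 0.178 and 0.195 without replicate 2 of PD1+Tim3-, and 0.139 and 0.142 without replicate 1 of PD1+Tim3+. Of the 18 genes of cell cycle inhibitors and quiescence 3 rose, with Cdkn1a first, and 2 fell, Slfn5 and Txnip. Without replicate 1 or 2 of PD1+Tim3- the call of Cdkn1a alone remained.

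Of 13 tested genes of S100 proteins, galectins and annexins, calcium- and sugar-binding proteins, 10 rose and none fell, with a median of 1.51. Among all tested genes 5.21% rose and 4.72% fell. The same list held 6 further tested genes, of which Vim, Ahnak, Crip1, Capg and Emp3 rose, so that 15 of 19 rose in all, also with a median of 1.51. Lgals3, encoding galectin 3, stood at 29.0 and 23.1 against 245 and 181 CPM, 2.99 ± 0.19. S100a4 stood at 80.4 and 65.1 against 392 and 626 CPM, 2.79 ± 0.23, Lgals1, encoding galectin 1, at 182 and 159 against 516 and 654 CPM, 1.78 ± 0.15, and Anxa1, encoding annexin 1, rose by 2.04 ± 0.19. Vim, of the vimentin filament, stood at 165 and 175 against 602 and 521 CPM, 1.72 ± 0.13. Without replicate 1 of PD1+Tim3- 12 of the 15 calls remained. Transcripts of 8 of the 19 genes are under 1000 bases, a class whose medians are given with the WT comparison below.

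Metabolic and stress lists ranged from no call to several, where 9.93% of all tested genes were called, 5.21% higher and 4.72% lower. None of 23 glycolysis genes was called by edgeR (median 0.08), with 4 at an unadjusted p under 0.05, and DESeq2 called 0 and limma-voom 1. In edgeR 1 of 34 respiratory chain genes was called, Cox5a, at 0.54 ± 0.12, a call lost without replicate 1 or 2 of PD1+Tim3-, at adjusted p of 0.104 and 0.158, and without replicate 1 or 2 of WT PD1+Tim3+, at 0.0508 and 0.0510. Of 17 hypoxia genes 3 rose and none fell, and of 26 cholesterol and fatty acid genes 2 fell. Without replicate 1 of PD1+Tim3- 1 and 0 of these calls remained, and without replicate 2 of PD1+Tim3- 2 and 0. In the interferon list 4 of 33 rose and 1 fell, of which 2 calls remained without replicate 1 and 3 without replicate 2 of PD1+Tim3-. Of those that rose 3 were Ifitm1, Ifitm2 and Ifitm3, encoding membrane proteins that block virus entry. Ifitm1 stood at 8.32 and 8.92 against 71.3 and 83.3 CPM, 3.18 ± 0.17, and Ifitm2 at 2.17 and 2.62 against 23.3 and 22.5 CPM, 3.31 ± 0.26, and Ifitm3 had an adjusted p of 0.207 without replicate 1 of PD1+Tim3-. The sequences of these genes are alike, so how their reads were divided is uncertain. Of 7 tested MHC class II genes 2 rose, Cd74 and H2-Aa, whose levels are given with the markers of other cells below, and 1 fell. The median was 0.78, and 5 of the 7 had positive log2 fold changes. The gene that fell was H2-Ob, encoding a chaperone chain of class II antigen loading, from 10.3 and 8.92 to 0.745 and 0.924 CPM, -3.53 ± 0.39, adjusted p 0.000424. The GIMAP survival genes, 8 tested, had a median of 0.07 and no call by edgeR, DESeq2 or limma-voom, with 3 at an unadjusted p under 0.05 in edgeR.

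Markers of other cells differed by list, where 5.21% of all tested genes rose and 4.72% fell. Melanoma markers summed to 22.1 and 23.6 CPM in PD1+Tim3- and 20.8 and 24.2 in PD1+Tim3+, with Sox10 at 0. Macrophage markers summed to 1505 and 1445 against 1664 and 1506 CPM, with Fcgr1 and Ms4a7 at 0. Ly6c2, which CD8 T cells also express, made 1478 and 1433 against 1642 and 1483 CPM of these sums, and the other macrophage markers 26.4 and 12.1 against 21.8 and 22.4. Neutrophil markers ran from 14.9 to 18.5 CPM, B cell markers from 3.15 to 7.02 with Ms4a1 at 0, and fibroblast and endothelial markers from 23.6 to 37.5 with Col1a2 and Col3a1 at 0. None of the genes tested in these lists was called by edgeR, DESeq2 or limma-voom. In edgeR 1 melanoma, 1 macrophage and 1 B cell marker had an unadjusted p under 0.05, and 0 of the others. Natural killer cell markers summed to 52.5 and 52.0 against 79.9 and 75.0 CPM, with the defining gene Ncr1 at 0 in all 4 libraries, and 2 of 5 were called higher, Klre1 and Fcer1g. Eomes, which CD8 T cells also express, made 31.9 and 36.2 against 35.2 and 26.8 CPM of these sums. Dendritic cell markers summed to 41.6 and 42.0 against 85.1 and 72.2 CPM, with Cd209a at 0, and 3 of 6 were called higher. These were Itgax, at 28.8 and 28.3 against 49.3 and 44.3 CPM, Cd74, at 5.79 and 6.30 against 22.7 and 16.8, and H2-Aa, which had 1 and 0 counts in PD1+Tim3- and stood at 3.54 and 2.59 CPM in PD1+Tim3+. CD4 and regulatory T cell markers summed to 452 and 471 against 577 and 547 CPM, with 3 of 5 called higher (Zbtb7b, Il2ra and Cd40lg). Ctla4 and Il2ra, which CD8 T cells also express, made 354 and 365 against 391 and 365 CPM and 83.4 and 88.2 against 145 and 150. Foxp3, the defining gene of regulatory cells, stood at 0.724 and 1.05 against 1.68 and 0.554 CPM. Of 7 listed markers of gamma delta T cells the count table held 3, which summed to 9.23 and 8.40 against 26.2 and 26.6 CPM. Cd163l1, called higher, made 7.24 and 6.82 against 22.5 and 22.2 CPM of these sums. Klre1 was the only one of these calls kept without replicate 1 of PD1+Tim3-. Globin genes of red cells summed with their list to 3.80 and 3.67 against 109 and 33.3 CPM, and all 4 were called, but the PD1+Tim3+ libraries differed from each other several-fold and none of the calls was kept without replicate 1 or 2 of PD1+Tim3-. The part of these cells in the results was not tested.

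Of the 346 genes with a fall above 2-fold, 290 had their lowest level of the 8 libraries in replicate 1 of PD1+Tim3+ labelled dKO, and 293 their highest in replicate 1 of WT PD1+Tim3-. Myb is among both. Relative to each gene's mean over the 8 libraries, the median level of the 346 was 0.44 and 0.70 (log2) in PD1+Tim3- labelled dKO and -0.96 and -0.30 in PD1+Tim3+, so the libraries of a population differed from each other. Without that lowest library 65 of the 346 calls remained. The set includes genes known from other tissues: Fgf14, encoding a growth factor homologue of neurons, stood at 216 and 233 against 45.4 and 103 CPM, and Wnt3a, encoding a developmental ligand, at 25.2 and 26.8 against 5.96 and 11.3 CPM. Families were chosen by symbol after their values were seen, and of all tested genes 4.72% fell. Of 12 tested olfactory receptor genes all had negative log2 fold changes, 7 fell, and the median was -1.04. The 56 such genes in the table summed to 1245 and 1329 unscaled CPM in PD1+Tim3- and 576 and 821 in PD1+Tim3+, and in WT to 1654 and 1206 against 709 and 732. Of 5 tested clustered protocadherin genes 4 had negative log2 fold changes and 3 fell, with a median of -1.09. Late cornified envelope genes fell in 2 of 2 cases, with a median of -1.34. Of 6 tested vomeronasal receptor genes 3 had negative log2 fold changes and none was called, with a median of -0.12. All 3 tested keratin genes had negative log2 fold changes, with a median of -0.94, and none was called. In WT 311 of the 346 genes were called lower too.

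The WT libraries of the same sort were set beside those labelled dKO. Whether WT donors carried OT-I is not stated, so genotype and T cell receptor may differ together here. In WT 2223 genes were called, 17.0% of those tested, with 1078 higher (8.25%) and 1145 lower (8.76%). Called in both genotypes in the same direction were 896 genes, which is 69.0% of the calls in libraries labelled dKO and 40.3% of those in WT. The direct test of the difference, the interaction of genotype label and population in edgeR, called 0 genes (0.00%), with 1320 at an unadjusted p under 0.05 and a lowest adjusted p of 0.200. limma-voom also called 0, DESeq2 called 109 with 105 higher in the libraries labelled dKO, a fit without the low-count filter 331, robust empirical Bayes 4, and the fit without replicate 1 of PD1+Tim3+ labelled dKO 323. In the 25 genes of lowest p for this difference, Itm2a stood at -1.46 ± 0.12 with the dKO label and at -0.63 ± 0.11 in WT. Ccr7 stood at -0.95 ± 0.11 against -0.17 ± 0.10, from 134 and 141 to 124 and 120 CPM in WT. Gzma rose by 2.85 ± 0.14 against 1.79 ± 0.12, and Lgals1 by 1.78 ± 0.15 against a WT value of 0.38 ± 0.14 that was not called. None of these differences passed, each having an adjusted p of 0.200. Havcr2 stood at 4.03 ± 0.19 against 3.82 ± 0.18 and Tcf7 at -0.87 ± 0.11 against -0.80 ± 0.11, and their differences, with adjusted p of 0.891 and 0.913 in edgeR, were not called either.

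**Figure D3:**
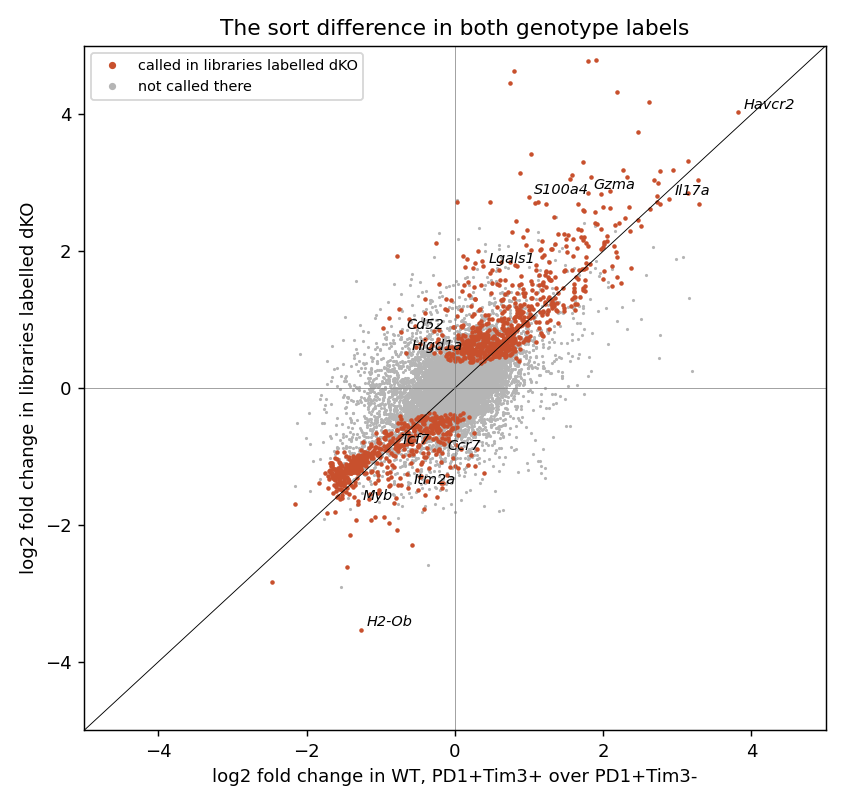
Log2 fold change of PD1+Tim3+ over PD1+Tim3- in libraries labelled dKO (vertical axis) against WT (horizontal axis), with the line of equal change. Red points are the genes called in the libraries labelled dKO, of which 896 were called in the same direction in WT, and 1 gene lies outside the axes. Havcr2 and Tcf7 lie near the line, and Ccr7 and Itm2a lie below it.

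Transcript length moved with the genotype label. For transcripts under 500 bases the median log2 fold change was 0.01 with the dKO label and -0.56 in WT, and those of 500 to 700 bases 0.28 and -0.45. From 1000 bases upward the medians of both lay between -0.06 and 0.15. Of the 25 genes of lowest p for the difference, 14 had transcripts under 1000 bases, against 7.49% of the tested genes with a known length. Cytosolic ribosomal protein genes, many of them short, had a median of -0.08 in the libraries labelled dKO, with 1 of 84 higher and 1 lower, and of -0.87 in WT, with 60 lower. The S100, galectin and annexin list had a median of 1.51 against 0.39, with 15 and 8 higher. Glycolysis genes had medians of 0.08 and 0.38, with 0 and 10 higher. None of these members passed for the difference between genotype labels. The part of transcript length in these values was not tested, and a fit with offsets for length called 1197 genes in the libraries labelled dKO.

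**Figure D4:**
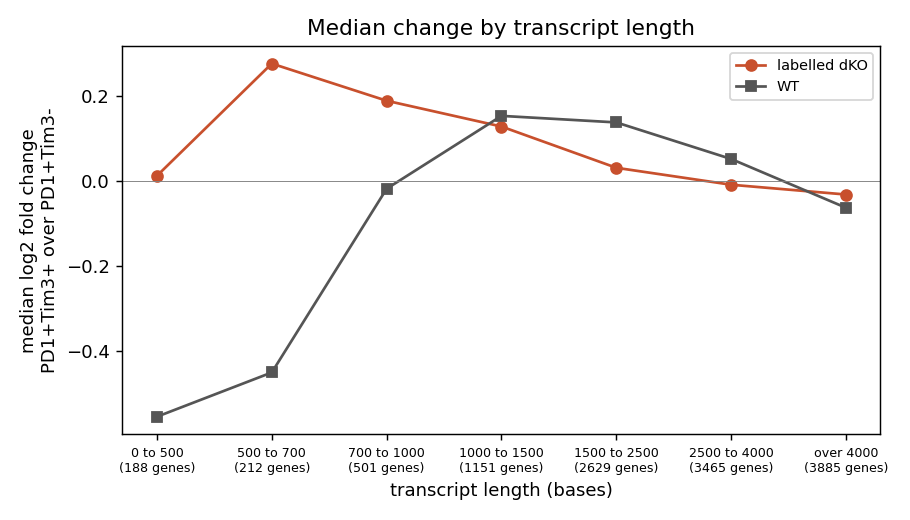
Median log2 fold change of PD1+Tim3+ over PD1+Tim3- (vertical axis) for genes grouped by transcript length in bases (horizontal axis, number of genes in brackets), in libraries labelled dKO (red circles) and WT (grey squares). In the bins below 700 bases WT lies at -0.56 and -0.45 and the libraries labelled dKO at 0.01 and 0.28. Replicates are not drawn apart, and those of PD1+Tim3+ labelled dKO had 12.7% and 14.7% of counts in transcripts under 1000 bases.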

How the data were processed

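The data are 1 table of counts per gene symbol that the authors deposited for all 8 libraries. Cutadapt 1.18, Bowtie2 2.2.5 and build mm10 appear, without their roles, in the submitters' processing notes. Not given in the sources used here are the counting tool, the annotation and the strand setting. Overlapping and near-identical genes are therefore uncertain. The unnamed last row, equal to each column's total, was dropped, which left 24976 genes.

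Counts were tested with edgeR 4.0.16 (R 4.3.3): TMM scaling, filterByExpr (13073 genes kept), 1 quasi-likelihood fit of 8 libraries with a mean per group (4 residual degrees of freedom), and contrasts for population within each genotype label and for their interaction. The filter keeps a gene with enough counts in any 2 libraries, so a gene near 0 in 1 population can enter through the other alone. Such a gene can be called in only 1 direction. A gene was called at a Benjamini-Hochberg adjusted p under 0.05 in this fit. Standard errors are the absolute log2 fold change divided by sqrt(F). With 2 libraries per group the p-values assume that all groups vary alike. Columns headed PD1 were read as PD1+Tim3-, since those of Tim3+ cells name both receptors. Within each group the libraries differed by more than sampling noise (chi-square per gene 3.10 to 16.1), so none was a repeat reading of another library. Whether they came from separate animals cannot be read from this value. Total counts ran from 1944999 to 13418762.

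Genes were named by rule: the sort markers and targeted genes, the 15 higher and 15 lower genes of lowest p above 2-fold with a mean of at least 10 CPM and no overlap between libraries (predicted and ribosomal RNA genes left out), the 10 of largest fold in each direction under the same conditions, and called members of gene lists. A few genes that these rules reach are not reported here. Members and lists were chosen with earlier results of these data known. Gene positions are from GENCODE annotation of GRCm38, which mm10 matches, and promoters from RefSeq. Transcript lengths were found for 92.0% of tested genes. The test was checked on simulated counts. Alternatives were RLE and upper quartile factors, DESeq2 1.42.0, limma-voom 3.58.1, other filters, a test against 1.5-fold, fits of only 4 libraries, with a replicate block, with robust empirical Bayes, on thinned counts, without ribosomal RNA genes and without each library. An offset for transcript length and a fit without replicate 2 of both groups labelled dKO were chosen after the data were seen.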

Additional observations from a re-analysis of the deposited data

How the results depend on the processing

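The count of genes called in the libraries labelled dKO, 1298, kept within 1.5 times under RLE (1264) and upper quartile factors (1317), DESeq2 (940), limma-voom (1121), no filter (1764), a strict filter (1064), only the 4 libraries (950), robust empirical Bayes (1076), no ribosomal RNA genes (1289), thinned counts (866) and length offsets (1197). It was 140 in the test against 1.5-fold, 773 without replicate 2 of both groups labelled dKO, and 132 to 1392 with a library left out. The WT count, 2223, moved to 1314 with DESeq2, 1215 on thinned counts and 301 against 1.5-fold, and lay between 433 and 2773 with 1 library left out. The interaction, 0, gave 109 with DESeq2, 331 without a filter and 4 with robust empirical Bayes, and 0 to 323 with a library left out. It cannot be fitted with only 4 libraries. The cause of these differences was not tested, beyond fewer samples in the fits that leave out libraries.

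The labels number replicates 1 and 2 in each population without saying that a number marks a shared mouse, and the deviations of same-numbered libraries correlated at -0.05 in libraries labelled dKO and -0.02 in WT, with 2 pairs each, so the numbers were not taken as pairs. With the replicate block the counts were 1006, 1528 and 0.

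Of 212 named genes that were called, none reversed under any alternative. Genes near 0 did: Nr4a3 stood at -0.00626 to 0.0670 with 1 library left out and -0.0329 without replicate 2 of both groups, Cd3e at -0.0558 to 0.177 with 1 library left out and -0.0297 with length offsets, and Cd8b1 at -0.0532 to 0.148 with 1 library left out (-0.00805 without replicate 1 of PD1+Tim3-) and -0.0402 with length offsets. Depth limits the lowest genes most: replicate 2 of PD1+Tim3-, with 1944999 counts, gives few counts to genes such as Csf2 and Il22.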

Other observations

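Genes of type 17 T cells, which make interleukin 17, were higher in PD1+Tim3+ cells labelled dKO. This list was chosen after its values were seen, so its count is a description. Of 13 tested genes 10 were called higher and none lower, beside 5.21% and 4.72% of all tested genes. The median log2 fold change was 2.12. In WT 10 were higher and 1 lower, beside 8.25% and 8.76% of all tested genes, with a median of 1.78. Il17a, the gene of the cytokine itself, stood at 2.71 and 3.67 CPM in PD1+Tim3- and 22.5 and 18.3 in PD1+Tim3+, 2.77 ± 0.31. Il1r1, of the interleukin 1 receptor, stood at 2.90 and 3.67 against 17.3 and 21.8 CPM, 2.64 ± 0.32. Il23r, of the interleukin 23 receptor, stood at 1.45 and 1.05 against 6.70 and 6.65 CPM, and Il22, with 2 and 0 counts in PD1+Tim3-, at 6.33 and 4.06 CPM in PD1+Tim3+. With so few counts in PD1+Tim3-, Il22 could be called only higher. Tmem176a and Tmem176b, membrane protein genes of such cells, rose by 2.42 ± 0.38 and 2.12 ± 0.25. Il17ra stood at -0.27 ± 0.12 and was not called. The gamma delta markers Cd163l1 and Sox13 stood at 7.24 and 6.82 against 22.5 and 22.2 CPM, and at 1.81 and 1.05 against 3.16 and 4.06 CPM. The gamma delta receptor genes were not analysed here, and the part of such cells in these values was not tested. Without replicate 1 of PD1+Tim3- labelled dKO 4 of the 10 calls were kept, and Il1r1, Il23r, Il22 and Tmem176a had adjusted p of 0.0663, 0.104, 0.104 and 0.116.

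In libraries labelled dKO 7 genes were called higher in PD1+Tim3+ that were called lower in WT: Bloc1s1, Cd52, Gm3873, Higd1a, Lcn4, Mrpl33 and Pcbd2. Cd52, encoding a small surface glycoprotein of lymphocytes, stood at 493 and 342 against 552 and 924 CPM, 0.82 in log2, and at -0.73 in WT. Higd1a, encoding a mitochondrial protein induced by low oxygen, stood at 53.9 and 45.7 against 63.7 and 80.5 CPM, 0.51, and at -0.66 in WT. None of the 7 passed for the difference between genotype labels (adjusted p 0.200 each), and 5 of the 6 with a known length have transcripts under 1000 bases. None of the 7 was called higher without replicate 1 or 2 of PD1+Tim3- or replicate 2 of PD1+Tim3+ labelled dKO, and 2 were without either WT PD1+Tim3+ library.

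Xist, transcribed from the inactive X chromosome of female cells, and the Y-linked gene Ddx3y were both counted in every library, WT included. With the dKO label Xist stood at 690 and 684 against 679 and 671 CPM, and Ddx3y at 49.8 and 48.8 against 56.8 and 58.0 CPM. In WT Xist ran from 854 to 955 CPM and Ddx3y from 18.9 to 31.4 CPM.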
